A study of Mus musculus with 2 samples.

Results

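The gasdermin genes described here are Gsdmc, Gsdmc2, Gsdmc3, Gsdmc4 and Gsdmd, 5 of the 31253 features of a single-cell RNA count matrix from mouse duodenal crypts. They are the matrix rows that carry these symbols. The set was selected on the UMI counts of these same cells, among which Gsdmc4 and Gsdmc2 had led a cluster, so the levels below are a description with no test. Crypts, the pits of the intestinal lining that hold its stem cells, came from wild-type mice of 2 groups, ES and NT, abbreviations the labels do not spell out. The series is about chronic stress and stem cell ageing. Crypts of 5 animals were pooled per group before sequencing, so each group is 1 library and animals cannot be separated. The matrix marks its 2 libraries by barcode suffix, and nothing read here says which suffix is ES and which is NT. They are therefore called library 2 and library 1, every ratio is library 2 over library 1, and no direction between ES and NT is drawn. All intervals are exact 95% intervals that cover counting error only, because there is no replicate library.

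Gasdermins are proteins that protease cleavage turns into membrane pores. Gsdmd is the best-known member: caspase-1, and in mice caspase-11 (gene Casp4), release its pore-forming part, and the pore lets out mature interleukin-18 and can end in the lytic death called pyroptosis. The mouse has a cluster of Gsdmc copies where humans have a single GSDMC, and in mouse intestine these copies are known to be induced by the type 2 cytokines interleukin-4 and interleukin-13 through Stat6.

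In the GENCODE M21 annotation of GRCm38 (mm10), the build the submitters' processing notes name, the members all lie on chromosome 15. Gsdmc (ENSMUSG00000079025, 63775968 to 63808759), Gsdmc2 (ENSMUSG00000056293, 63824346 to 63845177), Gsdmc3 (ENSMUSG00000055827, 63857724 to 63878558) and Gsdmc4 (ENSMUSG00000055748, 63891264 to 63912297) form a tandem array of 136.3 kb on the minus strand. No other protein-coding gene lies between them. Gsdmd (ENSMUSG00000022575, 75862327 to 75867408, plus strand) lies 11.95 Mb away. No other annotated gene overlaps any of the 5. The Gsdmc copies are so alike that reads can be hard to place: in their coding sequence Gsdmc2 and Gsdmc3 were 97.1% identical, and Gsdmc4 was 93.4% identical to each of them. Gsdmc was 83.8% identical to Gsdmc2, and Gsdmd 53.6% identical to Gsdmc2. The ends of the 3 expressed coding sequences, up to and including the stop codon, are shown because they let a reader see how alike the copies are in coding sequence. In the chosen transcripts the stop codon lies 396 (Gsdmc2), 547 (Gsdmc3) and 540 (Gsdmc4) bases before the transcript end. Capitals mark the bases that differ from Gsdmc2.
Gsdmc4: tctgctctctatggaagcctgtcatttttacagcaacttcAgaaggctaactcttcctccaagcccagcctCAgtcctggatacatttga
Gsdmc3: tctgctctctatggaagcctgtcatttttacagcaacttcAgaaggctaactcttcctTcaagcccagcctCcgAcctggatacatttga
Gsdmc2: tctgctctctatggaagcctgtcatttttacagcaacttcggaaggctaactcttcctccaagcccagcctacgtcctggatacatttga
Over these 90 bases Gsdmc4 differed from Gsdmc2 at 3 positions and Gsdmc3 at 4. In the last 500 bases of the coding transcript chosen for each gene, Gsdmc3 and Gsdmc4 were 91.6% identical, Gsdmc2 and Gsdmc3 71.4%, and Gsdmc2 and Gsdmc4 72.0%. Of the stretches of 90 bases that could be cut from those last 500 bases, 18.5% for Gsdmc2, 18.7% for Gsdmc3, 0% for Gsdmc4 and 0% for Gsdmd occurred unchanged in a transcript of another member. No source read here states how reads that match several copies were counted, so the split of UMIs (unique molecular identifiers, 1 per captured RNA molecule) among Gsdmc2, Gsdmc3 and Gsdmc4 is uncertain, and their sum is also given. The RefSeq promoter table used here held 1 of the 5 members, Gsdmc3, whose promoter on the minus strand at chr15:63878509-63878808 (GRCm38.p6) is shown because the copies move together. Capitals mark a match to TATATAA.
Gsdmc3 promoter: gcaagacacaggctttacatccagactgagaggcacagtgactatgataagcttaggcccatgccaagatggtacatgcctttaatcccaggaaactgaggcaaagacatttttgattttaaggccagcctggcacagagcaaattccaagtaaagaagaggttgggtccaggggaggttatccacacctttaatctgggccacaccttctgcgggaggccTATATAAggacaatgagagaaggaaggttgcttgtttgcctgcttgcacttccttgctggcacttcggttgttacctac
TATATAA, added to the search after the sequence had been seen, matched 29 bases before the start site, and 3.24% of the 32851 promoters of the table hold it on either strand. The STAT6-type motif, TTC and GAA with 4 bases between, had no match in this window and is in 6.95% of the promoters. The STAT-type motif with 3 bases between had none either and is in 8.30% of them. The TATA-type letters TATAAA, in 13.6% of promoters, were also not found. No match was found to CAAAGT, an HNF4-type piece in 14.3% of promoters. The CDX-type motif TTTATG, which 11.8% of promoters hold, was likewise not found in this window. Another search, for the letters AGATAA held by 11.2% of promoters, gave no match. These matches describe letters in this window only.

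The libraries held 54877667 UMIs in 6446 barcodes (library 2) and 54316199 UMIs in 6310 barcodes (library 1). A filter of 500 or more genes and no more than 25% mitochondrial UMIs kept 3727 and 4057 cells, with a median of 11800 UMIs per cell in library 2 and 10854 in library 1. Of the barcode sequences, 40 occurred in both libraries and 13 of these had both cells kept. Cells were placed in 11 classes by their UMIs of marker genes other than the members. Each class had its own markers, and none of another class, among its top 10 genes by fold. The gates use these same markers, so this is no separate check of the classes. All enterocyte lists counted as own in each enterocyte class, and cycling markers did not count as foreign in cycling stem-like cells. Of 5271 cells outside the secretory and lymphocyte gates, 507 lay within 20% of the early enterocyte gate. Class sizes ran from 77 and 43 tuft-like cells to 609 and 620 early enterocyte-like cells. Early enterocyte-like cells passed a gate on absorptive cell markers such as Alpi, Sis and Anpep, and missed the mature and Reg3 gates. Reg3-high enterocyte-like cells passed the early gate, missed the mature gate and were rich in the antimicrobial lectins Reg3b and Reg3g. Mature enterocyte-like cells passed a gate on apolipoproteins and fatty acid carriers such as Apoa1 and Fabp2. The early gate's own markers were higher in mature cells, at a median of 196.3 UMIs per 10000 against 67.7 in early cells. The name early thus rests on missing the mature gate. Lymphocyte-like cells, led by Gzma, Gzmb and Ccl5, were shallow, with median UMI counts of 3227 and 2444.

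The copy named Gsdmc had next to no UMIs. It had 2 UMIs in the kept cells of library 2 and 2 in those of library 1, each in a different cell. The other 4 members passed 100 UMIs. In library 2 the kept cells held 4525 UMIs of Gsdmc4, 1989 of Gsdmc2, 505 of Gsdmc3 and 3715 of Gsdmd. In library 1 they held 3095, 1343, 372 and 2419 UMIs of the same genes.

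Among the named classes, Gsdmc4 was highest in early and Reg3-high enterocyte-like cells in both libraries. In early enterocyte-like cells it reached 211.5 UMIs per 1000000 UMIs (CPM; 202 to 221) in library 2 and 127.7 CPM (120 to 136) in library 1. Reg3-high enterocyte-like cells had 186.7 CPM in library 2 and 160.5 CPM in library 1. These 2 classes stood above all other named classes in both libraries. Cycling progenitor-like cells came next among classes of over 100 cells, at 92.6 and 66.8 CPM in libraries 2 and 1. Goblet-like cells had 32.5 and 39.9 CPM. Mature enterocyte-like cells had 23.7 and 15.9 CPM, and cycling stem-like cells had 14.3 and 14.96 CPM. Stem-like cells with few cycling UMIs had 15.5 CPM in library 2 and 12.9 CPM in library 1, so that early enterocyte-like cells were 13.7 times (10.3 to 18.4) and 9.90 times (7.55 to 13.2) as high. Against mature enterocyte-like cells they were 8.93 times (7.01 to 11.6) and 8.04 times (5.69 to 11.7) as high.

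Gsdmc2 and Gsdmc3 followed the same course at lower UMI numbers. Gsdmc2 had 87.9 CPM (library 2) and 53.6 CPM (library 1) in early enterocyte-like cells, and 77.3 and 72.3 CPM in Reg3-high cells. Cycling progenitor-like cells had 46.0 and 34.1 CPM of it, while mature enterocyte-like cells had 8.36 and 10.6 CPM and stem-like cells with few cycling UMIs 5.76 and 4.92 CPM. Gsdmc3 had 23.6 CPM (library 2) and 14.5 CPM (library 1) in early enterocyte-like cells, and 12.5 and 18.7 CPM in Reg3-high cells. In tuft-like cells, the chemosensory cells of the crypt, Gsdmc3 had 0 UMIs in both libraries, which at a limit of 3 counts allows up to 4.81 CPM in library 2 and 7.62 CPM in library 1 (the exact upper limits are 5.91 and 9.37 CPM). The order of the top 2 classes differed between libraries: early cells led for all 3 copies in library 2, Reg3-high cells led for all 3 in library 1. That order in library 1 depended on how the classes were drawn: with Leiden clusters Gsdmc4 had 172.7 CPM in early and 111.3 CPM in Reg3-high cells, and with class thresholds doubled 83.9 and 72.1 CPM. By gates the intervals of that pair overlapped for Gsdmc2 in library 2 and for Gsdmc3 in library 1. Below cycling progenitor-like cells, neighbours in the Gsdmc2 order overlapped throughout in both libraries.

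**Figure D1:**
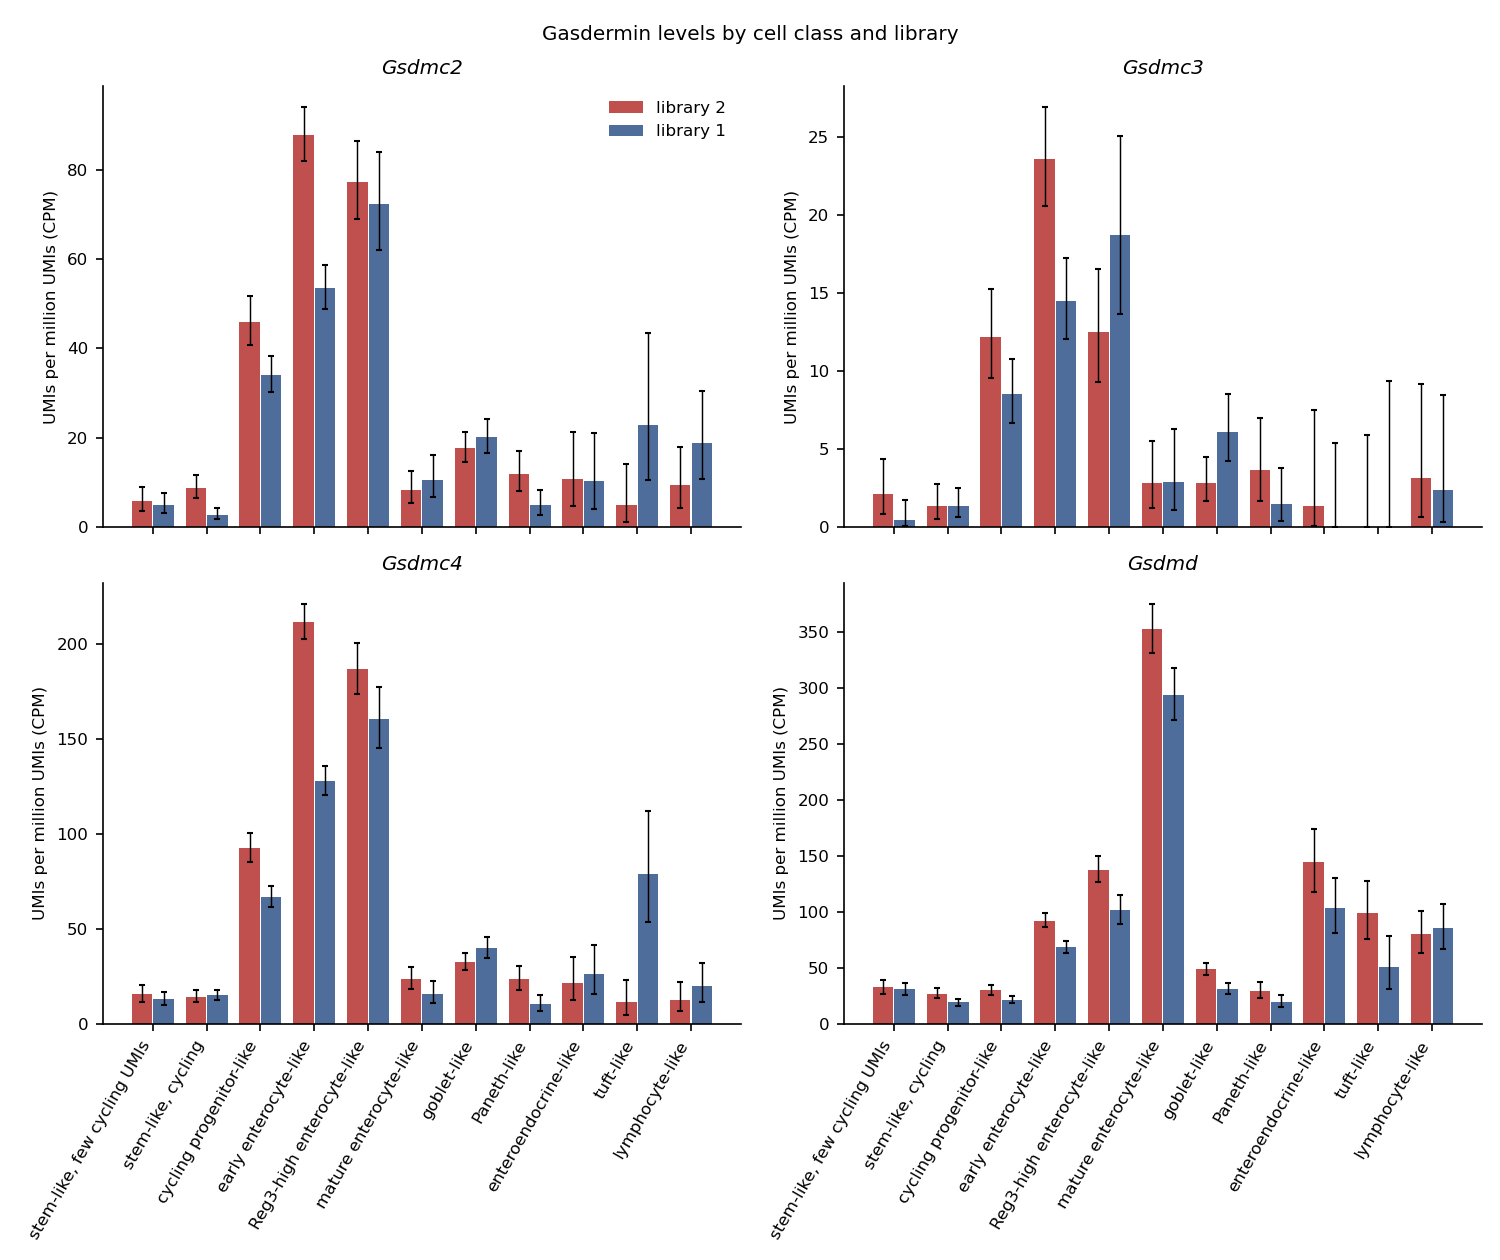
Level of each gasdermin in CPM (vertical axis, from 0) in the 11 cell classes (horizontal axis), library 2 in red left of library 1 in blue; lines are exact 95% counting intervals. Gsdmc2, Gsdmc3 and Gsdmc4 are highest in early and Reg3-high enterocyte-like cells, and Gsdmd is highest in mature enterocyte-like cells, at 353 and 294 CPM.

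Shares of cells gave the same picture at equal depth. After each cell was thinned to 2000 UMIs, Gsdmc4 was seen in 24.5% of 546 early enterocyte-like cells of library 2 and 17.3% of 509 in library 1. Without thinning the shares were 59.4% and 45.7%, at median depths of 14681 and 13324 UMIs. Lymphocyte-like cells, taken here as the background of free RNA, had 1.54% and 1.43% after thinning, and 5.04% and 2.12% before, at the median depths given above. Thinned shares in stem-like cells with few cycling UMIs (2.82% and 1.75%) and in mature enterocyte-like cells (2.15% and 2.11%) had intervals that held the lymphocyte-like share of the same library, so by shares Gsdmc4 in these cells was not distinguishable from that background. These shares rest on few cells with a UMI: 8 and 6 stem-like, 4 and 3 mature, and 3 and 3 lymphocyte-like cells. In library 1, 4 lymphocyte-like cells past the early enterocyte gate carried most of the UMIs of the copies in that class. Without them the lymphocyte-like level of Gsdmc4 was 2.55 CPM (0.309 to 9.20), below that of stem-like cells with few cycling UMIs (9.71 to 16.8) and of mature enterocyte-like cells (10.9 to 22.3) in library 1. Cells that passed no class gate, called low marker cells, had 193.1 CPM of Gsdmc4 in library 2 and 135.8 CPM in library 1, close to early enterocyte-like cells. They numbered 288 and 343 and are not a cell type.

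Gsdmd followed another order. In mature enterocyte-like cells it had 353 CPM (332 to 375) in library 2 and 294 CPM (271 to 318) in library 1, above every other class in both. Enteroendocrine-like cells, the hormone makers, came next at 144.2 and 103.4 CPM, and Reg3-high enterocyte-like cells followed at 137.6 and 101.9 CPM, with overlapping intervals. Early enterocyte-like cells had 92.2 and 68.5 CPM. Mature cells were 3.83 times (3.49 to 4.195) as high as early cells in library 2 and 4.29 times (3.83 to 4.82) in library 1, the opposite of the Gsdmc copies. Lymphocyte-like cells had 80.6 and 85.5 CPM, spread over 67 and 65 cells with at most 2 UMIs each. Tuft-like cells had 99.4 CPM in library 2 and 50.8 CPM in library 1. Stem-like, cycling progenitor-like and Paneth-like cells were lowest, between 26.99 and 32.8 CPM in library 2 and between 19.0 and 30.7 CPM in library 1. At 2000 UMIs, Gsdmd was seen in 52.2% of mature enterocyte-like cells (library 2) and 43.0% (library 1). Without thinning the shares were 91.0% and 81.6%. After thinning they were 15.4% and 13.4% in early cells, 16.9% and 17.6% in lymphocyte-like cells, and 4.23% and 6.43% in stem-like cells with few cycling UMIs. The share of lymphocyte-like cells lay above that of stem-like cells, so it is no common background for Gsdmd. Set per kilobase of the longest coding transcript, Gsdmd in mature cells had 197 and 164.1 CPM per kb, and Gsdmc4 in early cells 101.4 and 61.3 CPM per kb. Counts of transcript ends need not scale with length, so this comparison between genes is a rough one.

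Cells without a secretory or lymphocyte gate were also ordered by their enterocyte marker UMIs, early and mature lists together, and cut into 10 bins. The sum of Gsdmc2, Gsdmc3 and Gsdmc4 was 21.8 CPM (library 2) and 23.2 CPM (library 1) in the lowest bin, under 15 marker UMIs per 10000. It was highest between 40 and 120, at 361.7 to 389.2 CPM over 3 bins in library 2 and 224 to 277.7 CPM in library 1. In the last bin, from 240 upward, it was 36.2 and 29.9 CPM. Gsdmd stayed between 26.5 and 31.4 CPM in the first 4 bins of library 2 and between 18.0 and 23.4 CPM in those of library 1. In the last bin it reached 341.7 and 275.8 CPM. On this order the Gsdmc copies were thus high in lower bins than Gsdmd in both libraries, and the copies were low where Gsdmd was highest. The order is built from marker shares in 1 snapshot and holds no time.

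**Figure D2:**
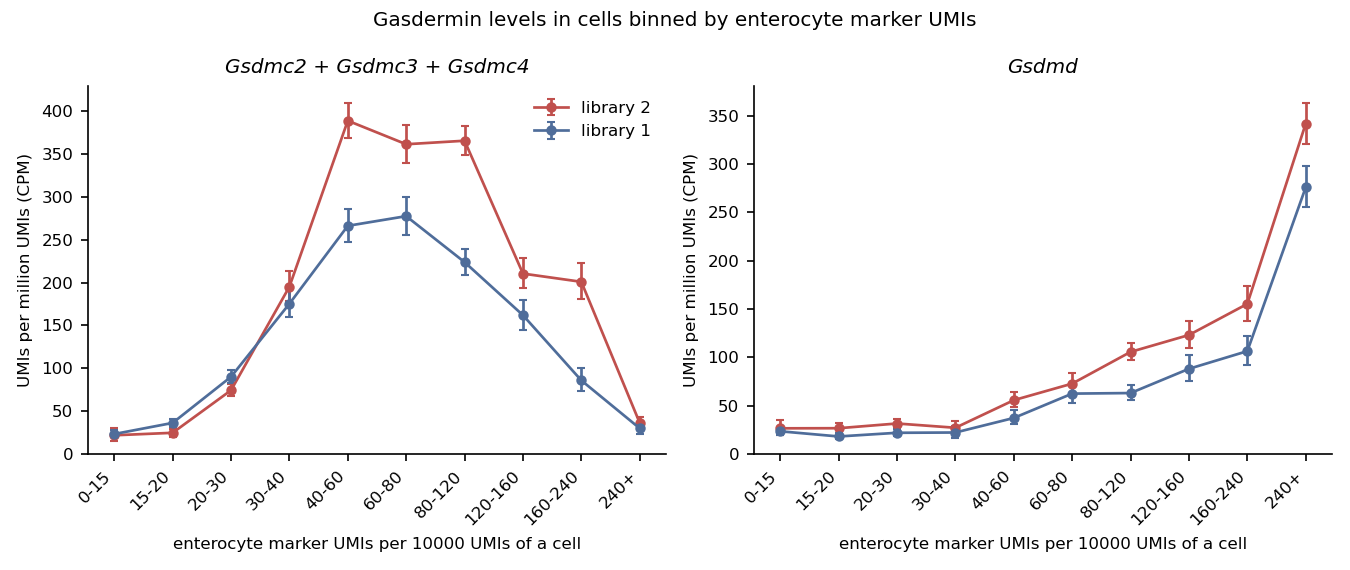
Summed level of Gsdmc2, Gsdmc3 and Gsdmc4 (left) and of Gsdmd (right) in CPM, in cells binned by enterocyte marker UMIs per 10000 UMIs (horizontal axis); library 2 in red, library 1 in blue, with exact 95% counting intervals. The Gsdmc sum peaks between 40 and 120 marker UMIs and Gsdmd climbs to 341.7 and 275.8 CPM in the last bin.

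The make-up of the 3 copies was close in both libraries in early enterocyte-like cells. Of their summed UMIs there, Gsdmc4 made up 65.5% in library 2 and 65.2% in library 1. Gsdmc2 made up 27.2% and 27.4%, and Gsdmc3 7.30% and 7.38%. In cycling progenitor-like cells the Gsdmc4 share was 61.4% and 61.0%, and in goblet-like cells 61.2% and 60.3%. The Gsdmc3 share in Reg3-high cells was 4.53% (3.38 to 5.92) in library 2 and 7.44% (5.48 to 9.83) in library 1, with overlapping intervals. Cycling stem-like cells differed more between the libraries. Their Gsdmc2 share was 35.9% (27.65 to 44.9) in library 2 (46 of 128 UMIs) and 14.3% (8.95 to 21.2) in library 1 (20 of 140 UMIs).

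The copies also fell in the same cells. At 10000 UMIs per cell, which left out 188 and 221 shallower early enterocyte-like cells, 69.6% of 421 cells (library 2) and 57.6% of 399 cells (library 1) held a UMI of at least 1 copy. All 3 copies were seen in 8.31% and 6.02% of these cells. Gsdmc2 was seen in 49.4% of early cells with Gsdmc4 and in 21.1% of those without it in library 2. In library 1 these shares were 41.8% with Gsdmc4 and 12.1% without. Gsdmd showed no such split: it was seen in 52.5% of cells with Gsdmc4 and 57.2% of those without in library 2, and in 43.8% and 47.5% in library 1, with overlapping intervals. Mature enterocyte-like cells seldom held any copy, 22.6% of 124 cells in library 2 and 11.4% of 105 in library 1. Cells are not replicates, and copies that share reads would be seen together more often, an effect that was not tested.

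**Figure D3:**
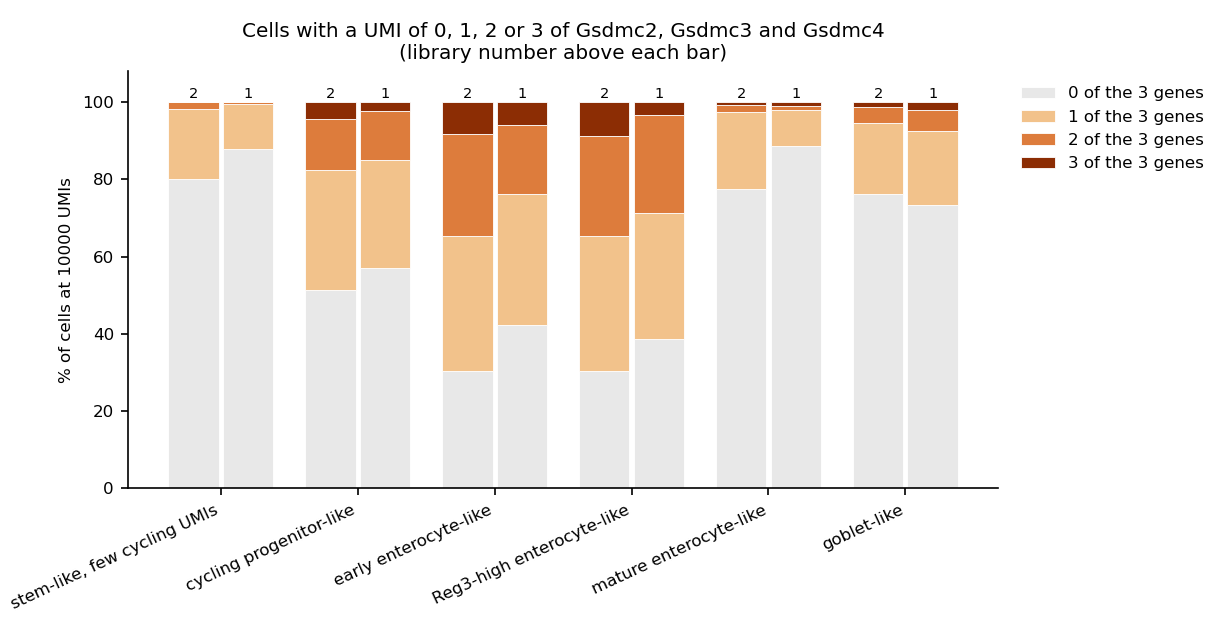
Share of cells (vertical axis, %) with a UMI of 0, 1, 2 or 3 of the genes Gsdmc2, Gsdmc3 and Gsdmc4 after thinning to 10000 UMIs, in 6 classes; the number above each bar is the library. Early and Reg3-high enterocyte-like cells have the smallest share without any copy, 30.4% in library 2 for both classes.

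UMIs of the copies were unevenly spread among early enterocyte-like cells. Cells with 20 or more UMIs of the 3 copies together, a limit chosen after the values were seen, numbered 36 of 609 in library 2 (5.91%, 4.17 to 8.09) and 11 of 620 in library 1 (1.77%, 0.889 to 3.15). They held 40.0% of the summed UMIs of the class in library 2 and 20.05% in library 1. The 10% of early cells richest in Gsdmc4 held 53.3% of its UMIs in library 2 and 57.9% in library 1. For Gsdmd the richest 10% held 40.7% and 41.0%. The highest single early cell had 92 UMIs of Gsdmc4 in library 2 and 55 in library 1. Stem-like cells held no cell of 20 or more, of 312 and 406 cells with few cycling UMIs and of 369 and 536 cycling cells.

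Between the libraries, a gene was called apart in a class when its CPM ratio was at least 1.5 either way, its interval did not hold 1 and it had at least 100 UMIs there over both libraries. In early enterocyte-like cells 3 of 4 measured members were apart and higher in library 2, against 2.78% of 8954 genes that were apart and higher and 1.41% that were apart and lower. Gsdmc4 had a ratio of 1.66 (1.54 to 1.78), Gsdmc2 of 1.64 (1.46 to 1.84) and Gsdmc3 of 1.63 (1.304 to 2.05), while the median gene stood at 1.03. Gsdmd, at 1.35 (1.21 to 1.499), was higher in library 2 but not apart. The members were chosen with values of these libraries known, so nothing is read from this share.

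The call in early cells depended on how the class was drawn. When cells were clustered instead (Leiden, members left out) and clusters named by the same markers, Gsdmc4 had a ratio of 1.26 and Gsdmc2 of 1.44, while the Reg3-high cluster had ratios of 1.92 and 1.70 for these genes. Over early and Reg3-high cells together, Gsdmc4 had 204.1 CPM in library 2 and 134.9 CPM in library 1 by gates, a ratio of 1.51 (1.42 to 1.61), and 1.48 (1.40 to 1.57) by clusters. Without the cells of 20 or more UMIs, the ratio of Gsdmc4 in early cells was 1.38 (1.27 to 1.51) and that of Gsdmc2 1.26 (1.09 to 1.44). That cut redraws no class and is made on the copies' own UMIs. It takes out 40.0% of their summed UMIs in library 2 and 20.05% in library 1, so a lower ratio follows from the cut itself. Early cells of library 2 lay slightly lower on the enterocyte order, with a median of 90.3 marker UMIs per 10000 against 100.1 in library 1. Single markers of that order went different ways in these cells. Reg1 had 1050 CPM in library 2 and 1806 CPM in library 1, Anpep 1742 and 1320 CPM, and Cdh17 1479 and 1449 CPM. The part of these differences in the ratio was not tested. Bin by bin, the ratio of the summed copies ran from 1.3 to 1.63 between 40 and 160 marker UMIs and was 2.34 (1.94 to 2.83) between 160 and 240. Between 15 and 20 it was 0.680 (0.541 to 0.852) and between 20 and 30 it was 0.825 (0.730 to 0.933), both lower in library 2. The cells in these bins differed between libraries. Median stem marker UMIs per 10000 were 98.1 in library 2 and 61.95 in library 1 between 15 and 20. Between 20 and 30 they were 36.9 and 23. The part of this in the 2 ratios was not tested.

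In the other classes few ratios of members were apart. In Reg3-high cells, where 3.3% of 6637 genes were apart and higher, Gsdmc4 stood at 1.16 (1.03 to 1.32), Gsdmc2 at 1.07 (0.885 to 1.29) and Gsdmd at 1.35 (1.16 to 1.58), none apart. In cycling progenitor-like cells, where 2.44% of 8983 genes were, Gsdmc4 stood at 1.39 (1.23 to 1.56) and Gsdmd at 1.41 (1.14 to 1.74), again not apart. In goblet-like cells Gsdmc4 was lower in library 2, with 32.5 CPM there and 39.9 CPM in library 1, a ratio of 0.815 (0.671 to 0.990). With cells thinned to 2000 UMIs this ratio was 1.36 (0.774 to 2.46) and with Leiden clusters 0.856 (0.698 to 1.05). Leiden clustering split goblet-like cells in 2, and the summed copies had 77.7 and 73.0 CPM in a cluster of 172 and 199 cells and 21.8 and 20.7 CPM in one of 422 and 247 cells. The part of this cluster mix in the ratio was not tested. Gsdmd in the same goblet-like cells had 48.5 and 31.4 CPM, a ratio of 1.54 (1.28 to 1.87), and was apart, as were 3.12% of 8835 genes. Gsdmd was apart in Paneth-like cells as well, with 29.4 and 19.6 CPM, a ratio of 1.5 (1.04 to 2.18), where 3.83% of 3705 genes were apart and higher and the median gene had a log2 ratio of -0.11. The summed copies were apart there too, at 39.2 and 16.6 CPM, a ratio of 2.36 (1.64 to 3.44) on 96 and 45 UMIs. Lymphocyte-like cells, taken as the background of free RNA, had 25.1 and 41.0 CPM of the summed copies. Without cells past the early enterocyte gate they had 25.5 and 7.64 CPM, also higher in library 2. The part of free RNA in the Paneth-like ratio was not tested. Mature enterocyte-like cells, where 4.11% of 5548 genes were apart and higher, had a Gsdmd ratio of 1.201 (1.085 to 1.33) and a Gsdmc4 ratio of 1.49 (0.970 to 2.33), neither apart. Lymphocyte-like cells had a Gsdmd ratio of 0.943 (0.676 to 1.32), with 7.06% of 3770 genes apart and higher, and enteroendocrine-like cells one of 1.40 (1.02 to 1.91), with 8.77% of 3160. No member was apart in stem-like cells: Gsdmc4 stood at 1.2 (0.803 to 1.79) in those with few cycling UMIs and 0.953 (0.701 to 1.29) in cycling ones, where 1.78% of 7910 and 2.08% of 8996 genes were apart and higher. Gsdmd stood at 1.07 (0.819 to 1.39) and 1.42 (1.11 to 1.80) in the same 2 classes. In cycling ones Gsdmc2 stood at 3.215 (1.86 to 5.74) on 46 and 20 UMIs, and Gsdmc3 at 0.978 (0.316 to 2.85) on 7 and 10. Both had too few UMIs to be called. In low marker cells Gsdmc2, Gsdmc3 and Gsdmd were apart and higher in library 2, at 1.61, 1.54 and 1.89, and Gsdmc4 at 1.42 was not, while 2.61% of 7420 genes were. Over all kept cells Gsdmd, Gsdmc2 and Gsdmc4 were apart, at 1.60, 1.54 and 1.52, where 5.68% of 12050 genes were, and Gsdmc3 at 1.41 was not. That pooled value also moves with class sizes: mature enterocyte-like cells were 5.39% of library 2 and 3.75% of library 1, and Reg3-high cells 6.60% and 4.19%.

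**Figure D4:**
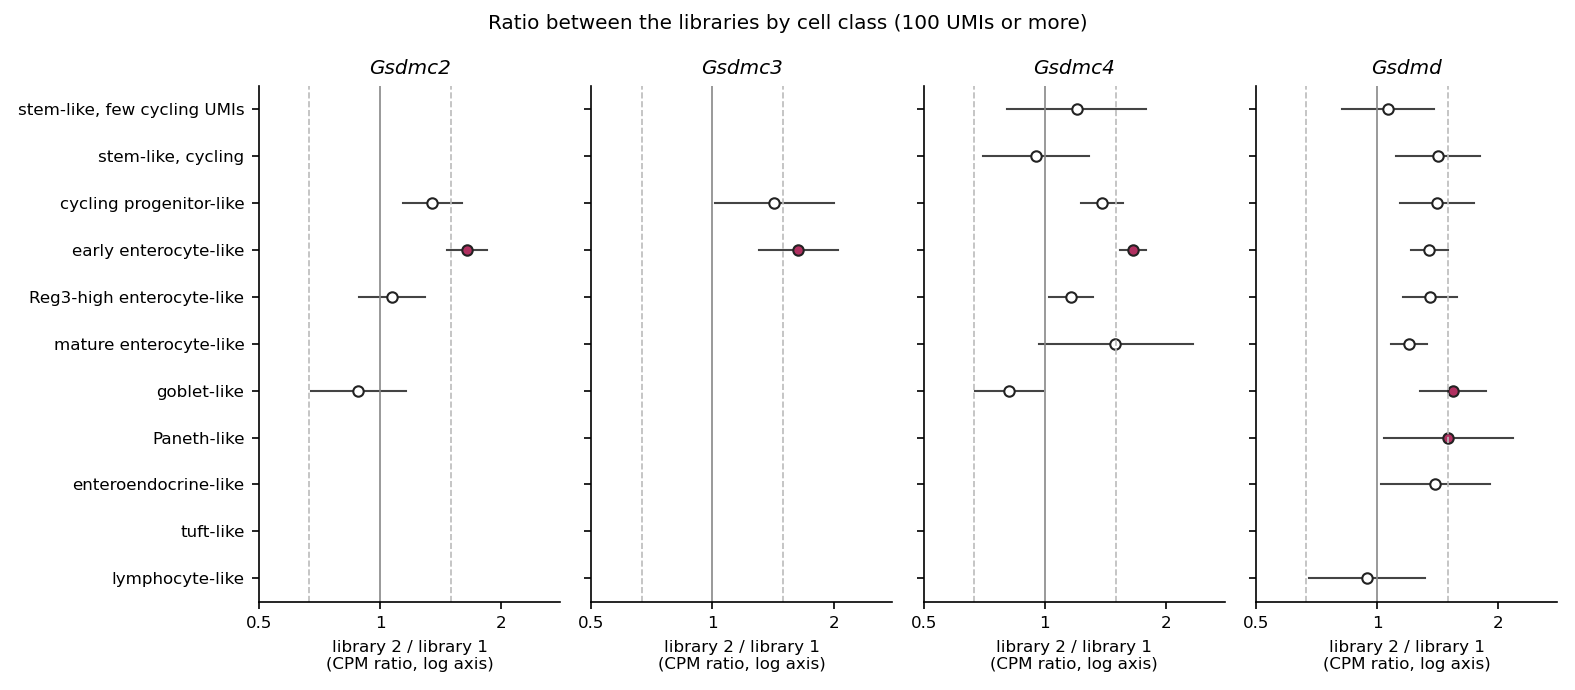
Ratio of library 2 to library 1 (horizontal log axis) of each gasdermin in each class with at least 100 UMIs of it; lines are exact 95% counting intervals, dashed lines mark 1.5-fold either way and filled points are apart and higher in library 2. The Gsdmc copies are apart in early enterocyte-like cells, at 1.63 to 1.66, and Gsdmd in goblet-like and Paneth-like cells.

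Some levels outside the absorptive classes rested on a handful of cells. In library 1, 34 of the 40 UMIs of the copies in tuft-like cells lay in 8 cells that also passed the early enterocyte gate, and 29 of the 35 UMIs in lymphocyte-like cells lay in 4 such cells. Without them Gsdmc4 in tuft-like cells was 10.47 CPM in library 2 and 15.7 CPM in library 1, against 11.2 and 78.8 CPM with them. In lymphocyte-like cells it was 12.7 and 2.55 CPM without them, against 12.6 and 19.9 CPM with them. Whether these barcodes hold more than 1 cell was not tested.

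Genes around the gasdermins were read from 7 lists, drawn up with earlier results of these data known. Of the other gasdermins, Gsdme had 1429 UMIs in kept cells and Gsdma2 had 198. Gsdme was at 8.82 CPM (library 2) and 9.51 CPM (library 1) in early enterocyte-like cells, a ratio of 0.927 (0.674 to 1.28). Of Gsdma, Pjvk and Gsdma3 the kept cells held 15, 4 and 0 UMIs.

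The machinery upstream of Gsdmd was present in enterocytes and mostly level between the libraries. Pycard, the adaptor that joins sensors to caspase-1, had 1071 and 1016 CPM in early enterocyte-like cells, a ratio of 1.05 (1.03 to 1.09). Nlrp6, an epithelial sensor, had 350.6 and 337.2 CPM. Nlrc4, which assembles with Naip proteins on bacterial ligands, had 71.9 and 66.5 CPM, and Naip6 had 76.3 and 72.0 CPM. The sensor apart between libraries was Nlrp9b, known in mouse intestine for sensing rotavirus RNA and acting through Gsdmd. It had 8.08 CPM in library 2 and 3.64 CPM in library 1 in early cells, a ratio of 2.22 (1.44 to 3.48), and 43.5 and 22.6 CPM in mature cells, where Gsdmd was also highest. In all 1 of 8 measured inflammasome genes was apart and higher in early cells and 0 lower, with a median log2 ratio of 0.07 against 0.04 over all genes. Of all 8954 genes there, 2.78% were apart and higher and 1.41% apart and lower.

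Among caspases 1 of 5 measured was apart and higher in early cells, where 2.78% of 8954 genes were. Casp4, whose product is the mouse caspase-11 that cleaves Gsdmd on sensing bacterial lipopolysaccharide, had 82.8 CPM (library 2) and 44.4 CPM (library 1) in early cells, a ratio of 1.86 (1.65 to 2.11). It was apart in Reg3-high cells too, at 120.4 and 76.5 CPM, and in mature cells, at 68.2 and 38.5 CPM. Goblet-like cells, at 57.8 and 37.2 CPM, were apart as well. Of all genes, 3.3%, 4.11% and 3.12% were apart and higher in these classes, in that order. In stem-like and cycling progenitor-like cells its ratios ran from 1.36 to 1.485, not apart but with intervals above 1. Casp1, which cleaves Gsdmd and interleukin-18, had 464.6 and 469.1 CPM in early cells. Casp8, which initiates apoptosis from death receptors, had a ratio of 1.002 (0.927 to 1.08) and Casp6 one of 1.008 (0.967 to 1.05), and the median log2 ratio of the list was 0.00.

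No gene of the list of pore partners and membrane repair, 9 measured, was apart in either direction in early cells, and its median log2 ratio was 0.08. Over all genes the shares apart there were 2.78% higher and 1.41% lower. The ESCRT genes Chmp4b, Chmp3 and Chmp2a, which reseal membranes, had ratios of 1.05, 1.03 and 1.06. Anxa2, a membrane-binding annexin, had 492.2 and 455.5 CPM. Of the cytokines that leave through gasdermin pores or on lysis, Il18 had 124.8 CPM in early cells of library 2 and 169.3 CPM in those of library 1, a ratio of 0.737 (0.682 to 0.797), short of apart. In mature cells it had 231.9 and 381.1 CPM, a ratio of 0.608 (0.548 to 0.675), apart and lower in library 2, as were 2.14% of 5548 genes. Il33, an alarmin, had 7.44 and 3.76 CPM in early cells and was apart there at 1.98 (1.28 to 3.11). In mature cells it had 11.5 and 21.7 CPM. Hmgb1, a nuclear protein released on lysis, had 214.5 and 216.7 CPM in early cells. Il1b had 0 UMIs in kept cells. Of the 3 measured genes of the list 1 was apart and higher and 0 lower in early cells, with a median log2 ratio of -0.01. Of all 8954 genes there, 2.78% were apart and higher and 1.41% apart and lower.

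The genes of type 2 cytokine signalling, the known inducer of the Gsdmc copies in mouse intestine, were mostly level. Stat6 had 84.1 and 82.9 CPM in early cells, a ratio of 1.014 (0.915 to 1.12), and the receptor chain Il13ra1 had 58.3 and 58.0 CPM. The kinases Jak1 and Jak2 had ratios of 0.920 and 1.02. Pla2g4c, a phospholipase gene, was the 1 of 7 measured that was apart, with 8.18 CPM in library 2 and 3.29 CPM in library 1 (77 and 28 UMIs), a ratio of 2.49 (1.59 to 3.98). The median log2 ratio of the list was 0.03, against 0.04 over all 8954 genes, of which 2.78% were apart and higher. Of 7 measured interferon regulators 2 were apart in early cells, both higher in library 2, where 2.78% of 8954 genes were apart and higher. The median log2 ratio of the 7 was 0.18, against 0.04 over all genes. Irf7 had 46.3 and 16.2 CPM in early cells and Stat2 had 81.6 and 32.4 CPM, ratios of 2.86 and 2.52. Neither was particular to early cells. Both were also apart and higher in cycling stem-like, cycling progenitor-like, Reg3-high, mature, goblet-like and tuft-like cells. In mature cells Irf7 had a ratio of 4.04 and Stat2 one of 2.95. In lymphocyte-like cells Irf7 was apart at 1.62, and Stat2 at 1.29 was not. Irf2, known in mice and human cells for keeping Gsdmd transcribed, had 147.5 and 164.9 CPM, a ratio of 0.894 (0.830 to 0.964), and Irf1 had 223.7 and 224.5 CPM.

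**Figure D5:**
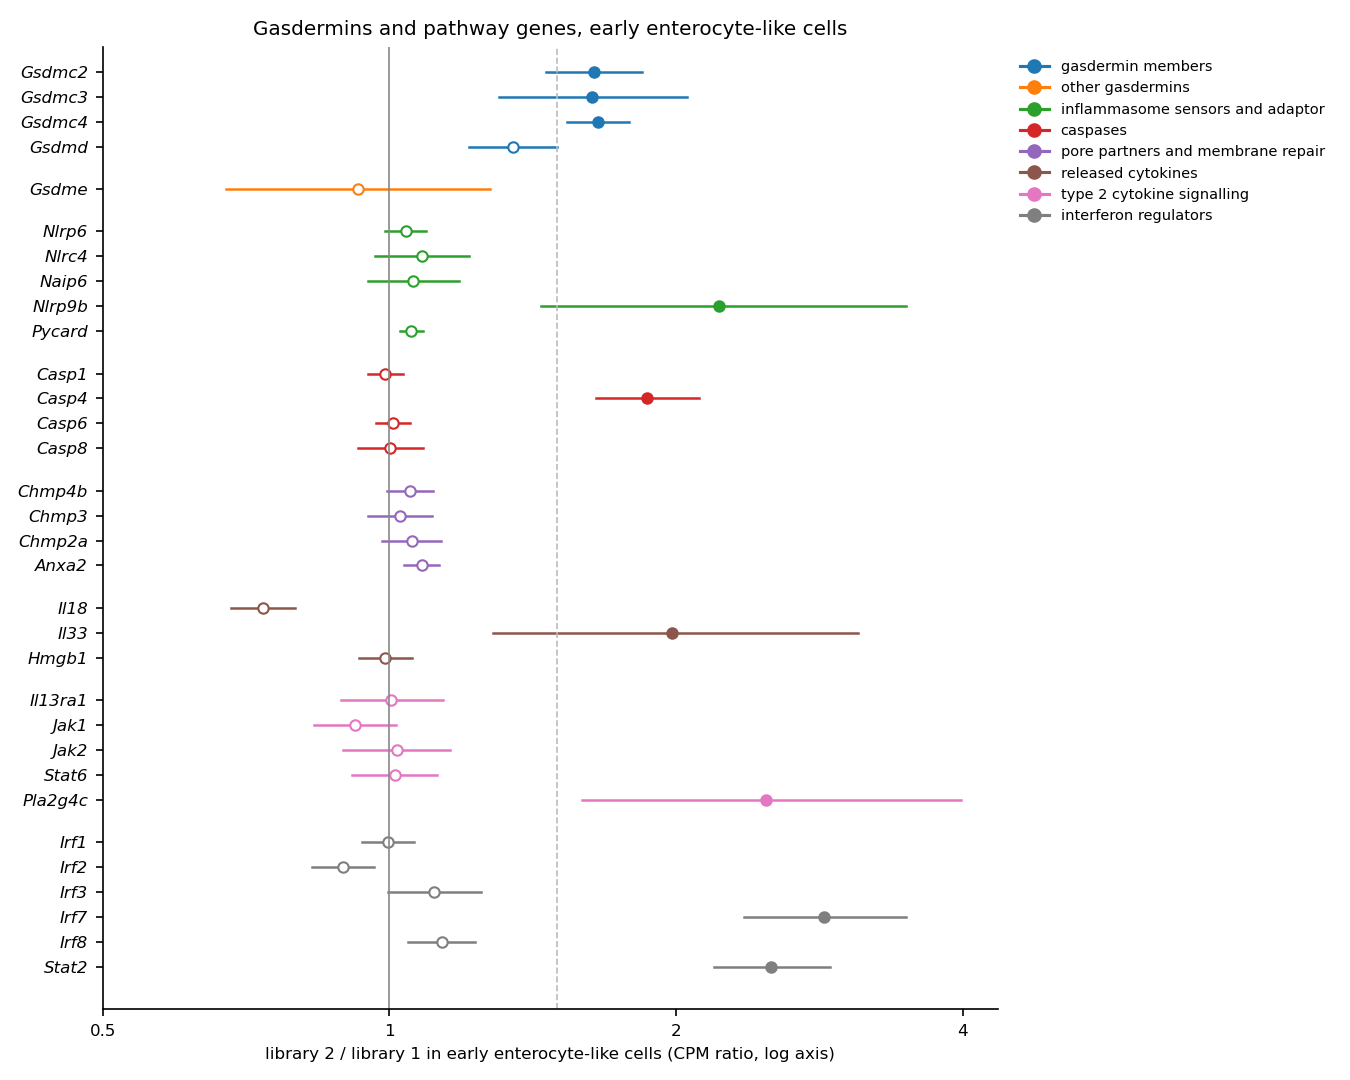
Ratio of library 2 to library 1 in early enterocyte-like cells (horizontal log axis) of the 4 measured gasdermins and of named genes of 7 lists (colours); lines are exact 95% counting intervals, the dashed line marks 1.5-fold and filled points are apart. Casp4, Irf7 and Stat2 are apart at 1.86 to 2.86, while Casp1, Pycard and Stat6 lie near 1.

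The genes whose class pattern was most like that of the summed copies were sought over 22 profiles, 11 classes in 2 libraries, among 9828 genes with at least 500 UMIs. They were Gm3336, Krt19, Serpinb6a, Cyp4f40 and Akr1b8, with Pearson correlations of log2(CPM + 1) between 0.79 and 0.81. Krt19, a keratin of simple epithelia, had 3070 and 2884 CPM in early enterocyte-like cells and 1172 and 1137 CPM in mature ones. This gap between the classes was smaller than that of the Gsdmc copies. For Gsdmd the nearest were Slc2a9, Mxd1, Rhoc, Ddhd2 and Tmem106a, at 0.91 to 0.95. Mxd1, a Myc antagonist of differentiating cells, had 167.5 and 143.9 CPM in mature cells and 31.9 and 34.1 CPM in early ones. The summed copies and Gsdmd correlated at 0.16 over the same profiles, and Gsdmc2 and Gsdmc4 at 0.95. These are descriptions over profiles that share 2 libraries and differ in depth.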

How the data were processed

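The authors deposited 1 matrix of UMI counts for both libraries, with gene and barcode lists, and the counts were used as deposited. Per the submitters' processing notes they were made with Cell Ranger 2.1.1 on mm10. The labels name a version 3 kit for transcript 3′ ends, but the deposited barcodes are 27 bases long, so the chemistry is unsettled. No RNA quality measure or doublet call came with the files.

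Of 12756 barcodes, 7784 had 500 or more genes and no more than 25% mitochondrial UMIs and were kept. Marker UMIs per 10000 set the class gates: lymphocyte 30, Paneth 1000, goblet 100 (300 in cells past the Paneth gate), enteroendocrine 30 and tuft 10, then mature enterocyte 100, early enterocyte 40, Reg3 80, stem 40 and cycling 20. Cells past several of the first 5 gates were left out as possible doublets (45 in library 2, 22 in library 1), as were cells above 0.5 of such a gate (80 and 115). No doublet caller was run. Gates were set after marker distributions had been seen, without reading the members. The members, gene lists and rules were chosen with earlier results of these data known. Some genes of the caspase and interferon lists are not reported here, and the counts and medians of those lists are without them.

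UMIs were summed per library and class and given as CPM with exact Poisson intervals. Ratios had exact conditional intervals and shares Clopper-Pearson ones, at 95%. With 1 library per group there was no test. A count of 0 allows up to 3 counts. Thinning was to 2000 or 10000 UMIs without replacement. Named genes were the members, up to 4 per list by UMIs with any others apart in early enterocyte-like cells, and the 5 most alike per pattern. Identifiers matched GENCODE M21 for 31107 of 31253 features. Python 3.11.15, numpy 2.4.6, scipy 1.17.1, leidenalg 0.10.2 and Biopython 1.88 were used.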

Additional observations from a re-analysis of the deposited data

Results flagged for a closer look

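In goblet-like cells Gsdmc3 had a ratio of library 2 to library 1 of 0.463, with 18 UMIs in library 2 and 34 in library 1, while its interval lay above 1 in cycling progenitor-like and early enterocyte-like cells. Gsdmc4 in goblet-like cells had a ratio of 0.815, with its interval below 1 by gates but not with Leiden clusters (0.856, 0.698 to 1.05), and of 1.36 (0.774 to 2.46) with cells thinned. Within each of the 2 Leiden clusters of goblet-like cells the summed copies were 21.8 and 77.7 CPM in library 2 and 20.7 and 73.0 CPM in library 1. By gates, in cycling progenitor-like, early enterocyte-like, Reg3-high enterocyte-like and Paneth-like cells the interval of the Gsdmc4 ratio lay above 1. In tuft-like cells the ratio of Gsdmc4 was 0.142, with 7 UMIs in 77 cells of library 2 and 31 UMIs in 43 cells of library 1, of which 21 lay in a single cell. Without tuft-like cells past the early enterocyte gate it was 0.669 (0.17 to 2.77), an alternative chosen after seeing the data, and with Leiden clusters it was 1.70 (0.389 to 10.2). Each was singled out because the direction was opposite to that in other classes. The difference between classes was not tested, since each group is 1 library.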

How the results depend on the processing

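No paired analysis was possible because each group is 1 library. The ratios of Gsdmc2, Gsdmc3, Gsdmc4 and their sum in early enterocyte-like cells stayed above 1 under every alternative run, but some intervals of Gsdmc3 held 1. They went under 1.5 in these: with Leiden clusters, Gsdmc2 1.44, Gsdmc4 1.26 and the sum 1.33; for Gsdmc3, 1.15 with class thresholds doubled (interval 0.764 to 1.74), 1.47 with cells thinned to 2000 UMIs (interval 0.7167 to 3.10) and 1.47 without the top 1% of cells; and without cells of 20 or more Gsdmc UMIs, chosen after seeing the data, 1.26 for Gsdmc2, 1.24 for Gsdmc3 (interval 0.945 to 1.62), 1.38 for Gsdmc4 and 1.34 for the sum. The cut at 20 or more Gsdmc UMIs is made on the copies' own UMIs and takes more from library 2, so lower ratios follow from it. For the other alternatives the cause was not tested. Gsdmd in these cells was not apart under any alternative run, and subtracting the lymphocyte-like level gave no value for it, since that level was higher in library 1.

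The fold of the summed copies in early over mature cells moved from 9.28 (library 2) and 6.67 (library 1) to 3.03 and 2.96 with thresholds halved, and in library 1 to 12.4 with thresholds doubled and 25.8 with Leiden clusters. The fold of Gsdmd in mature over early cells moved in library 2 to 3.38 without a cell filter, 2.995 with thresholds doubled and 5.10 with Leiden clusters, and in library 1 to 3.57 with thresholds doubled and 5.827 with Leiden clusters. No direction reversed among these folds. Of 632 levels under alternatives, 88 moved by over 1.5 times. Depth limits the small classes: no member reached 100 UMIs in tuft-like cells, and Gsdmd alone did in enteroendocrine-like and lymphocyte-like cells.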
